A study of Zea mays with 8 samples.

Results

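This account covers 103 maize probe sets that carry no gene symbol in the platform annotation and were lower in DpDf seedlings than in wild-type siblings in each of 4 paired comparisons. A probe set is a group of short probes on an Affymetrix array whose signals are combined into 1 value for a transcript or a few related ones. The members were chosen by their measured values: a mean log2 intensity of at least 4.75 over 8 arrays, a mean DpDf minus wild-type difference, d, of at most -0.4, and a d of at most -0.2 within every replicate number. They are 103 of the 11237 probe sets without a symbol at that level, of 16168 without a symbol at any level, and of 17734 on the array. In 2 of them, here called on-off, all 4 DpDf values lay under 27, the linear value that matches the level in the rule. Because the DpDf minus WT contrast picked them, their differences are given as a description, and no p-value is attached to the difference of a single member. Counts of members called in fits of that contrast are given further on, and nothing is read from them. A ± after a mean d is the SD of its 4 values of d.

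The study measured transcript levels in all above-ground tissue of maize seedlings on day 11 after planting, with 1 array for each pool of 12 plants. The DpDf group comprised 4 pools of duplicate-deficient plants, which derive from the translocation T5-6b, and the WT group comprised 4 pools of their wild-type siblings, all in the inbred B73 background. Per the labels, a DpDf plant has 3 copies of the chromosome 5 short arm, because its 65 chromosome holds about 90% of that arm, and that chromosome lacks the end of the chromosome 6 satellite. Both genotypes came from self-pollinated DpDf plants of 1 of 2 seed sources: 49647-3self gave replicates 1 and 3, and 49646-1self gave replicates 2 and 4. Seedlings were assigned to a genotype by a single marker linked to the chromosome 5 break, and each value is a mean over pooled plants.

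A segmental aneuploid has a changed number of copies of a chromosome segment, and transcripts from that segment often follow the number of copies. Transcripts from unvaried chromosomes can also move in either direction, which is usually called a trans effect. In a whole shoot, a lower signal for a transcript can reflect fewer cells of a type or less RNA per cell, and these cannot be told apart in bulk tissue. On this array the ID of a probe set starts with the number of an expressed-sequence cluster, such as Zm.4581, here called its stem. The ending describes how specific the probes are: _at marks probes unique to a transcript, _a_at marks probes that match alternative transcripts of the same gene, and _s_at and _x_at mark probes shared more widely.

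Array medians ran from 136 to 142 intensity units, and single values from 2.93 to 25352. Of the named genes on the short arm of chromosome 5, 51 served to check the labels. Their median log2 deviation from the wild-type mean was 0.40, 0.45, 0.45 and 0.36 in DpDf pools 1 to 4, against 0.06, -0.07, 0.02 and -0.01 in WT pools 1 to 4. All 9 green shoot marker genes that could be matched were at or above the level, at mean log2 values of 8.83 to 14.1. Both matched shoot meristem genes had mean log2 values of 6.62 and 7.68. Of 5 matched seed storage genes, 3 lay below the level and 2 at or above it, the highest at 6.94. That value lies between those of the 2 meristem genes. No pollen marker could be matched.

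The members made up 0.917% of the probe sets without a symbol at the level. By the mirror rule, 446 probe sets without a symbol, 3.97% of those at the level, were higher in DpDf in all 4 pairs. Over all probe sets at the level, with or without a symbol, 0.98% met the falling rule. The direction is fixed by the rule, so these shares describe how the choice divides the array.

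Differences ranged widely in size across the set. The mean d ran from -1.41 to -0.40, with a median of -0.57, which is a WT level 1.49 times the DpDf level. In 9 members it was -1 or lower, in 47 it was -0.6 or lower, and in the other 56 it lay between -0.6 and -0.4. Over all probe sets at the level other than array controls, 14 had a mean d of -1 or lower. Groups did not overlap, with every DpDf value below every WT value, in 69 of the 103 members. That happened in 4.8% of the 12335 probe sets tested, and since the rule used the same values nothing is read from the count. In the other 34 members at least 1 DpDf pool reached the lowest WT pool, although each pair taken by number ran the same way.

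**Figure D1:**
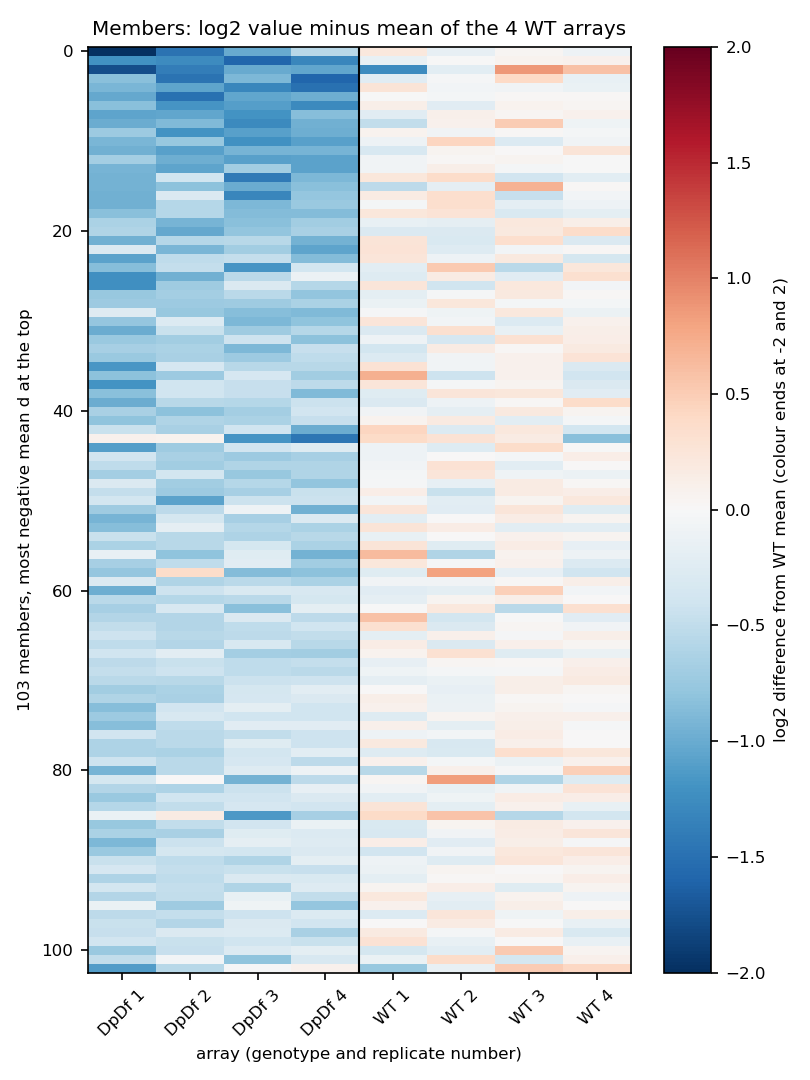
Each row is 1 of the 103 members, ordered by mean d from the most negative at the top, and each column is 1 array, with the DpDf pools left of the WT pools. Colour gives the log2 value minus the mean of the 4 WT arrays. The DpDf columns are mostly blue (lower), while the WT columns scatter on both sides of 0.

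The 11237 probe sets without a symbol at the level are called the unnamed background from here on. The median level of the members was 166 intensity units (log2 7.38), against 296 (log2 8.21) in the unnamed background; the signal of a probe set also depends on its probes, so single levels are not ranked against each other. Median WT values lay under 64 in 20 members, from 64 to under 256 in 40, from 256 to under 1024 in 31 and at 1024 or above in 12. The members also varied more within a group. The median standard deviation of log2 values within DpDf pools was 0.20 for the members and 0.12 for the unnamed background, and within WT pools it was 0.22 for the members and 0.12 for the unnamed background. The part of level and spread in the choice of the members was not tested.

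The 2 on-off members were both dim in WT pools as well. Zm.19089.1.A1_at had 21.6, 19.6, 16.4 and 14.5 in DpDf pools, against 48.6, 39.0, 38.7 and 37.2 in WT pools. Every DpDf value lay below every WT value, and the highest DpDf pool, replicate 1, was the one paired with the highest WT pool; the mean d was -1.19 ± 0.16. Zm.787.1.A1_at had 21.4, 22.6, 24.9 and 21.0 in DpDf pools, against 31.8, 35.7, 41.8 and 36.8 in WT pools. Here too all DpDf values lay below all WT values, and the mean d was -0.70 ± 0.11. With 16 added to each value before log2, which for the first of them was chosen after seeing the data, the mean d was -0.74 for Zm.19089.1.A1_at and -0.45 for Zm.787.1.A1_at, so the size of these differences depends on the scale at low values. Whether such low DpDf values are signal or background cannot be read from them, since no detection calls were used. In all, 13 of the 103 members had at least 1 DpDf value under 27, and 0 had a WT value under 27.

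Among the other members the lowest mean d belonged to Zm.7150.3.A1_a_at. Zm.7150.3.A1_a_at had 93.2, 204, 283 and 389 in DpDf pools, against 658, 508, 587 and 531 in WT pools. The DpDf pools were lowest in replicate 1 and highest in replicate 4, while the WT pools stayed between 508 and 658, and d was -2.82, -1.31, -1.05 and -0.45 in replicates 1 to 4 (mean -1.41 ± 1.01). The spread lay mostly within the DpDf pools. A sister probe set of the same stem, Zm.7150.3.A1_x_at, gave d of -2.07, -1.26, -0.91 and -0.08, the same order of replicates. The other sisters of that stem at the level had mean d between -0.25 and 0.02.

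Zm.4581.1.A1_at had the next lowest mean d, with far less spread. Zm.4581.1.A1_at had 82.7, 80.2, 64.1 and 77.8 in DpDf pools, against 173, 191, 200.2 and 203 in WT pools. The highest DpDf pool was far below the lowest WT pool, and the mean d was -1.34 ± 0.24. Zm.5472.1.A1_at had 98.6, 71.3, 97.1 and 102 in DpDf pools, against 199, 195, 203 and 203 in WT pools. The WT pools of this member were nearly equal, and the DpDf pool of replicate 2 stood below the other 3 DpDf pools, giving a mean d of -1.13 ± 0.21. Zm.13032.1.A1_at had 43.7, 34.7, 36.5 and 32.3 in DpDf pools, against 84.5, 67.1, 81.7 and 80.7 in WT pools. The groups of Zm.13032.1.A1_at did not overlap either, with a mean d of -1.10 ± 0.18. Zm.3763.1.S1_at had 38.2, 35.3, 39.1 and 39.0 in DpDf pools, against 60.1, 77.5, 75.0 and 89.1 in WT pools. The DpDf pools were tightly grouped and the WT pools were more widely spread, and the mean d was -0.98 ± 0.24. Zm.8376.1.S1_at had 60.2, 38.9, 57.7 and 36.0 in DpDf pools, against 92.0, 106, 143 and 97.6 in WT pools. Pools 2 and 4 were the low ones among the DpDf arrays of Zm.8376.1.S1_at, and the mean d was -1.20 ± 0.40. Zm.9577.1.A1_at had 517, 420.3, 389.5 and 394 in DpDf pools, against 789, 848, 863 and 822 in WT pools. The groups were separated by a wide gap in this member, whose mean d was -0.96 ± 0.24.

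Zm.9482.1.A1_at differed from these, because its level moved with the replicate number in both genotypes. Zm.9482.1.A1_at had 96.7, 127, 165 and 161 in DpDf pools, against 138, 286, 603 and 497 in WT pools. The lowest WT pool, that of replicate 1, lay below the DpDf pools of replicates 3 and 4, so the groups overlapped, and d was -0.52, -1.17, -1.87 and -1.63 (mean -1.30 ± 0.60).

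**Figure D2:**
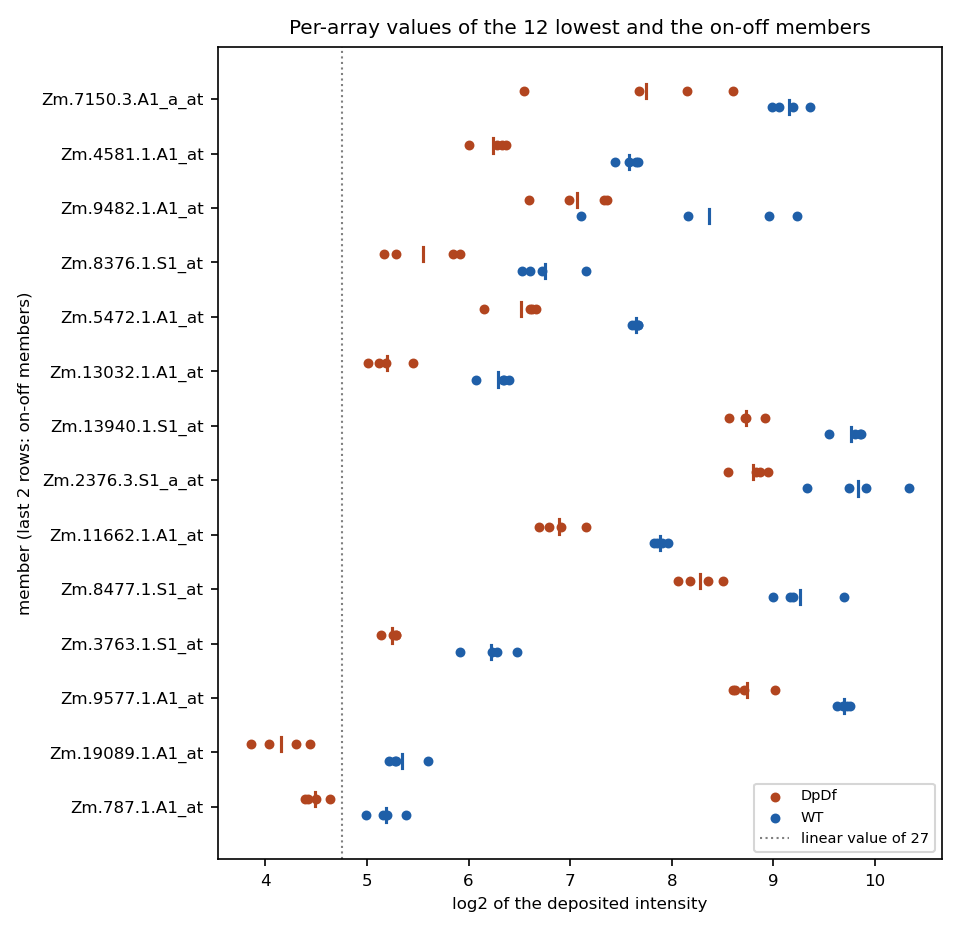
The horizontal axis gives the log2 of the deposited intensity of the 12 members with the most negative mean d and, in the last 2 rows, of the on-off members. Dots are arrays, short bars are group means over 4 arrays, DpDf stands above WT within each row, and the dotted line marks a linear value of 27. Zm.9482.1.A1_at is the single row in which dots of the groups interleave.

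Some members sat close to a round ratio in every pair, and these are described without any claim on their number of copies, which the files do not give. In 3 members all 4 d lay within 0.3 of -1, the log2 ratio of 1 copy to 2, and no other probe set at the level on the array did so. Zm.13940.1.S1_at had 421, 424, 379 and 484 in DpDf pools, against 747, 931, 894 and 922 in WT pools. The mean was 427 ± 43.0 in DpDf pools and 874 ± 86.1 in WT pools (SD, n = 4 each), and d was -0.83, -1.13, -1.24 and -0.93 in replicates 1 to 4. Zm.11662.1.A1_at had 142, 103, 111 and 120.4 in DpDf pools, against 249, 226, 240 and 231 in WT pools. The WT pools of Zm.11662.1.A1_at were tightly grouped, and its mean d was -0.997 ± 0.153. Zm.8477.1.S1_at had 327, 362, 267 and 289.7 in DpDf pools, against 574, 831, 511 and 587 in WT pools. Replicate 2 was high in both genotypes of Zm.8477.1.S1_at, and its mean d was -0.99 ± 0.16. A further 5 members had all 4 d within 0.2 of -0.58, the log2 ratio of 2 to 3, of 6 probe sets on the array at the level that did. These were Zm.9510.2.A1_a_at, Zm.19120.1.A1_at, Zm.5822.1.A1_at, Zm.9873.1.A1_at and Zm.17760.1.A1_at. A probe set without a symbol at the level whose 4 d all lay within 0.3 of -1 met the rule by definition. Only probe sets with a symbol could therefore have been others there. The choice on mean d and on each d also favours values near -0.58, and the windows differ in width, so nothing is read from these counts. No member could be placed on a chromosome, so none can be assigned to the segment of chromosome 6 that is deficient in DpDf plants, or to any other.

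The members with the highest values came next. Zm.3219.3.S1_at had 2138, 2318, 2687 and 2655 in DpDf pools, against 2854, 3331, 3389 and 3605 in WT pools. All DpDf pools were below all WT pools and the mean d was -0.43 ± 0.08. Zm.15902.1.A1_at had 2273, 2211, 2257 and 2582 in DpDf pools, against 2897, 3437, 3561 and 3325 in WT pools. These groups were also apart, at a mean d of -0.50 ± 0.17. Zm.11680.1.A1_at had 2038, 1692, 1607 and 1676 in DpDf pools, against 2474, 2688, 2596 and 2910 in WT pools. In this member the gap was smallest in replicate 1, whose d of -0.28 compares with -0.67 to -0.80 in replicates 2 to 4. Zm.15818.1.S1_at had 1971, 1726, 1834 and 1833 in DpDf pools, against 2656, 3400, 2410 and 2796 in WT pools. The WT pool of replicate 2 was the highest here, and d was lowest in that replicate, at -0.98. Zm.17550.1.A1_at had 1863, 1945, 2340 and 2597 in DpDf pools, against 3015, 2680, 3268 and 3074 in WT pools. The DpDf pools of replicates 3 and 4 came closest to the WT pools in this member, which had a mean d of -0.47 ± 0.18. Zm.10189.3.S1_a_at had 1511, 2158, 2895 and 2367 in DpDf pools, against 4162, 2685, 4069 and 3411 in WT pools. Here the groups overlapped, with the DpDf pool of replicate 3 above the WT pool of replicate 2. In replicate 1 d was -1.46, against -0.32 to -0.53 in the others. The other probe sets of its stem at the level, Zm.10189.1.A1_at and Zm.10189.2.A1_at, had mean d of -0.14 and 0.12.

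The pairs agreed best in 4 members that are not among the lowest. Zm.1882.1.S1_at had 28.0, 37.9, 22.5 and 31.3 in DpDf pools, against 35.9, 50.8, 30.8 and 42.2 in WT pools. The DpDf and WT values moved together over the replicate numbers and the groups overlapped, while d stayed between -0.45 and -0.36. Zm.19120.1.A1_at had 30.4, 40.9, 39.1 and 29.4 in DpDf pools, against 45.8, 63.7, 63.5 and 46.1 in WT pools. Pools 2 and 3 were high in both genotypes, and d stayed between -0.70 and -0.59. Zm.17760.1.A1_at had 195, 223, 162 and 159.5 in DpDf pools, against 271, 319.8, 218 and 234 in WT pools. The WT pool of replicate 3 lay below the DpDf pool of replicate 2, yet d stayed between -0.55 and -0.43. Zm.3307.1.A1_a_at had 28.6, 37.7, 35.9 and 36.1 in DpDf pools, against 39.7, 49.0, 51.0 and 50.6 in WT pools. Replicate 1 was low in both genotypes and d stayed between -0.51 and -0.38. With 16 added to each value before log2, the differences of these 4 members were -0.28, -0.47, -0.46 and -0.33, in the order given. Zm.1882.1.S1_at and Zm.3307.1.A1_a_at then lay outside the limit of -0.4. The size of these differences thus also depends on the scale at low values.

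Level moved with the replicate number by more than 1 log2 unit in 6 members, 5.83% of the set, against 2.02% of the unnamed background. In Zm.6763.3.A1_at, chosen for mention after its values were seen, both genotypes took part in this. Zm.6763.3.A1_at had 744, 738, 309.6 and 259 in DpDf pools, against 912, 859, 791 and 394 in WT pools. Replicates 3 and 4 were low in DpDf pools, and in WT pools the low one was replicate 4. Its stem also holds ssu1, the gene of a small subunit of Rubisco, the enzyme that fixes carbon dioxide in the leaf. That gene's probe set had 15319, 15496, 15493 and 15490 in DpDf pools, against 14728, 14611, 13745 and 13839 in WT pools, with a mean d of 0.12. The named probe set and the member thus had differences of opposite sign, and a shared stem does not make them 1 gene.

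By replicate number, the median d over the members was -0.62, -0.52, -0.59 and -0.57 in replicates 1 to 4, and the lowest d of a member fell in replicate 1 for 34 members, in replicate 2 for 20, in replicate 3 for 31 and in replicate 4 for 18. Replicate 1 had the lowest median among the members that end in _a_at. These are 16 of the members, 15.5%, against 8.30% of the unnamed background and 4.26% of the probe sets without a symbol that met the mirror rule. Their median d was -0.81, -0.35, -0.52 and -0.40 in replicates 1 to 4, and replicate 1 was the lowest in 10 of the 16. Over the 87 other members the medians were -0.58, -0.54, -0.63 and -0.59, with replicate 1 lowest in 24. Over all _a_at probe sets of the unnamed background, which d did not choose, the medians were -0.06, -0.01, -0.06 and -0.04, with replicates 1 and 3 at like values. The order in the members is a description of probe sets chosen on d.

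A measure of RNA integrity moved in the same replicate. Control probe sets on the array read the 3' end and the 5' end of the same maize transcript, and a larger 3' minus 5' difference is a known sign of shorter RNA or cDNA. Over 5 control transcripts bright enough to use, the mean difference was 1.52, 1.20, 0.98 and 1.09 log2 units in DpDf pools 1 to 4, against 0.81, 1.07, 0.79 and 0.97 in WT pools 1 to 4. DpDf pools averaged 1.20 ± 0.23 and WT pools 0.91 ± 0.13 (SD, n = 4 each). The two-sided exact permutation p was 0.0571, over 70 assignments of which the smallest p is 0.0286, and the difference of 0.29 was 0.18 without DpDf pool 1. Within replicate numbers DpDf exceeded WT by 0.71, 0.14, 0.19 and 0.13, so replicate 1 stood apart here as well. The part of RNA integrity in the members' differences was not tested.

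**Figure D3:**
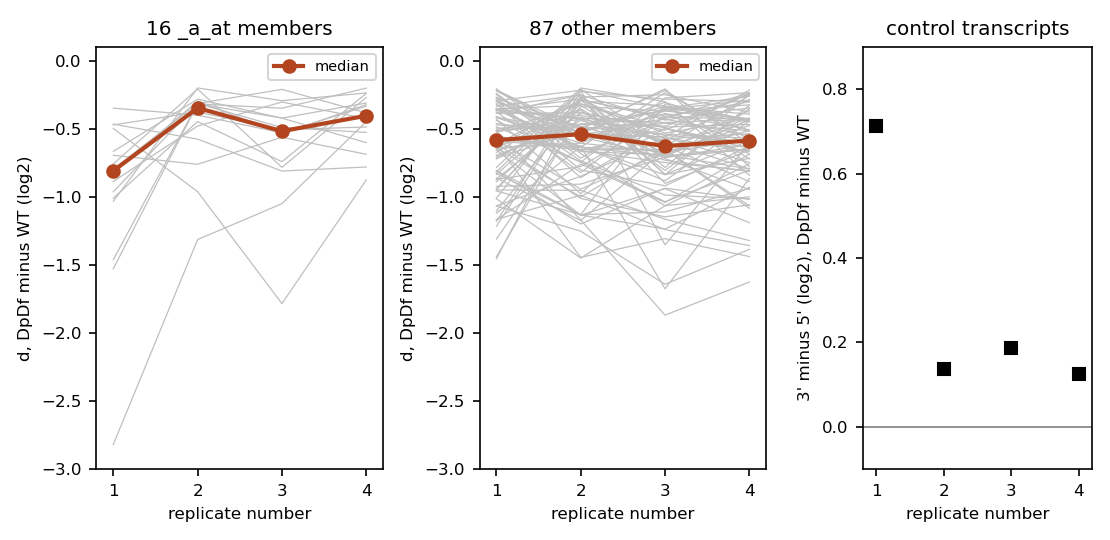
The left and middle panels give d (log2, DpDf minus WT) by replicate number for the 16 members that end in _a_at and the 87 others, with a grey line for each member and the median in orange. The right panel gives the 3' minus 5' log2 difference of the control transcripts, DpDf minus WT. Replicate 1 is lowest in the left panel, at a median of -0.81, and highest in the right panel, at 0.71, while the medians of the middle panel lie between -0.63 and -0.54.

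The members' values were set beside a fit that carries the control difference as a term. In the limma fit with genotype alone, 52 of the 102 members tested were called lower at an adjusted p under 0.05, against 0.843% of all probe sets; the rule used this contrast, so nothing is read from that count. With replicate number as a block the count was 94, against 3.35% of all probe sets. With the control term it was 22, against 0.259% of all probe sets. None of these counts is read as support, for the same reason. The median difference over the members was -0.57 with genotype alone and -0.51 with the control term. The rule largely fixed the sign of these values, since it used the same arrays; under the term 1 member changed sign, Zm.4302.2.A1_a_at at 0.06, and with genotype alone that member stood at -0.40, and at -0.17 without DpDf pool 1, -0.66 without WT pool 1, -0.24 without WT pool 3 and -0.27 without WT pool 4.

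The values moved with the term as follows in the members that end in _a_at. Their median difference was -0.51 with genotype alone and -0.29 with the control term, and 14 of the 16 came nearer to 0. Over the 86 others tested, the median was -0.58 with genotype alone and -0.55 with the term, and 45 came nearer to 0. Over all probe sets tested it was -0.023 with genotype alone and -0.018 with the term. The control difference was largest in DpDf pool 1, whose values also enter d and hence the rule. Nothing is therefore read from these shifts, and the part of RNA integrity in them was not tested. Zm.7150.3.A1_a_at stood at -1.41 with genotype alone and at -0.56 with the term. Zm.14039.1.A1_a_at had 1286, 1768, 2113 and 1995 in DpDf pools, against 2632, 2032, 2591 and 2352 in WT pools. In this member the pool DpDf 1 was the lowest of all 8, and the difference was -0.44 with genotype alone, -0.29 without DpDf pool 1 and -0.05 with the term. Zm.4581.1.A1_at stood at -1.34 with genotype alone and at -1.47 with the term.

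**Figure D4:**
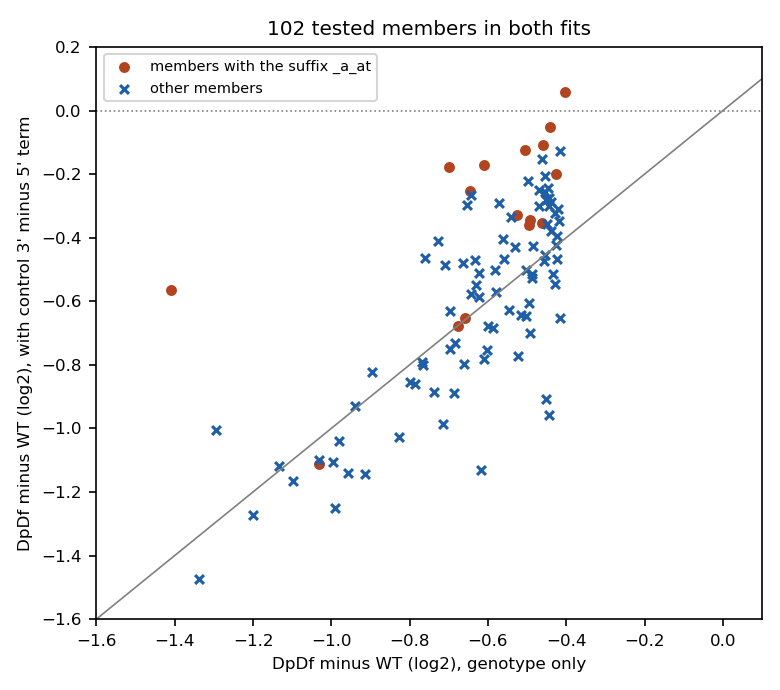
Each point is 1 of the 102 tested members, with its DpDf minus WT difference (log2) from the genotype-only fit on the horizontal axis and from the fit with the control 3' minus 5' term on the vertical axis. The grey line marks equal values and the dotted line marks 0. Filled points, the members that end in _a_at, lie mostly above the line, with a median of -0.29 with the term and -0.51 without it.

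Seed source was the comparison that the choice of members did not use. Pools of 49647-3self were compared with pools of 49646-1self in a limma fit with genotype as a term and replicate number as a random block. Of 12335 probe sets 1 was called at an adjusted p under 0.05, 0.00811%, and 0 of the 102 members were; the smallest adjusted p of a member was 0.214. At an unadjusted p under 0.05 there were 13 members, 12.7%, against 13.8% of all probe sets, 6 of them higher and 7 lower in 49647-3self. The median absolute seed source difference was 0.17 in the members and 0.09 over all probe sets tested. In the WT arrays alone, 19 members, 18.6%, had an unadjusted p under 0.05, against 7.03% of all probe sets. So the members' share was near that of all probe sets in the planned fit and above it in the WT arrays alone, whose values also enter d and hence the rule.

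The smallest seed source p belonged to Zm.10204.1.A1_at. Zm.10204.1.A1_at had 74.7, 96.1, 59.4 and 104 in DpDf pools, against 116, 192, 92.3 and 156 in WT pools. Replicates 1 and 3, from 49647-3self, were lower than replicates 2 and 4 in both genotypes, a difference of -0.67 ± 0.29 log2 units, where ± gives the 95% interval (limma adjusted p 0.214). Zm.14042.1.A1_at had 67.5, 85.8, 59.6 and 93.6 in DpDf pools, against 106, 124, 73.6 and 134 in WT pools. The same replicates were the low ones in each genotype, with a difference of -0.52 ± 0.28 (limma adjusted p 0.215). Zm.18949.1.A1_at had 37.8, 24.0, 35.6 and 21.8 in DpDf pools, against 65.2, 27.6, 43.8 and 39.0 in WT pools. The pools of 49647-3self were the higher ones in this member, by 0.69 ± 0.39 (limma adjusted p 0.215). In none of the 3 did the difference pass the threshold over all probe sets.

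The interaction of genotype and seed source asks whether d itself differed between the sources, and for members it is bounded because every d had to be at most -0.2. At an adjusted p under 0.05 limma called 0 probe sets, 0%, and 0 members. At an unadjusted p under 0.05 it marked 2% of all probe sets and 5 members, 4.90%. With replicate number as a random block it marked 4.08% of all probe sets and 8 members, 7.84%. Of the 5 without the block, Zm.15818.1.S1_at is named above, with d of -0.43 and -0.39 in the pairs of 49647-3self, and -0.98 and -0.61 in the pairs of 49646-1self.

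What the members share beyond the rule can be read from their IDs. The 103 members fall under 100 stems, and 30 of those stems hold other probe sets, 94 in all. Of these sisters 62 were at or above the level, in 18 stems. In 44 of the 62 the mean d was below 0, in 4 it was at most -0.4, and in 3 it was at least 0.4, with a median of -0.10. The median d of the unnamed background was 0.003, 0.005, -0.037 and -0.033 in replicates 1 to 4. Sisters can share probes or target transcripts with a member and with each other. They are not independent of the members, and nothing is read from these counts.

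The 3 sisters with a mean d of at least 0.4 lay in the stems Zm.14039 and Zm.14916. Zm.14039 also held a sister that was lower in DpDf, Zm.14039.1.A1_at, at a mean d of -0.41. Next to the member Zm.14039.1.A1_a_at, described above, Zm.14039.2.S1_at had 446, 564, 772 and 783 in DpDf pools, against 323, 402, 594 and 486 in WT pools, a mean d of 0.51. Zm.14916.3.S1_a_at, a member, had 103, 115, 140.1 and 101 in DpDf pools, against 191, 161, 173 and 136 in WT pools. Its sister Zm.14916.4.S1_x_at had 1448, 1714, 1501 and 1652 in DpDf pools, against 1086, 1169, 1015 and 1076 in WT pools. These sisters were named here after their values were seen. In Zm.14039.2.S1_at and Zm.14916.4.S1_x_at the DpDf pool was above the WT pool in every replicate number.

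**Figure D5:**
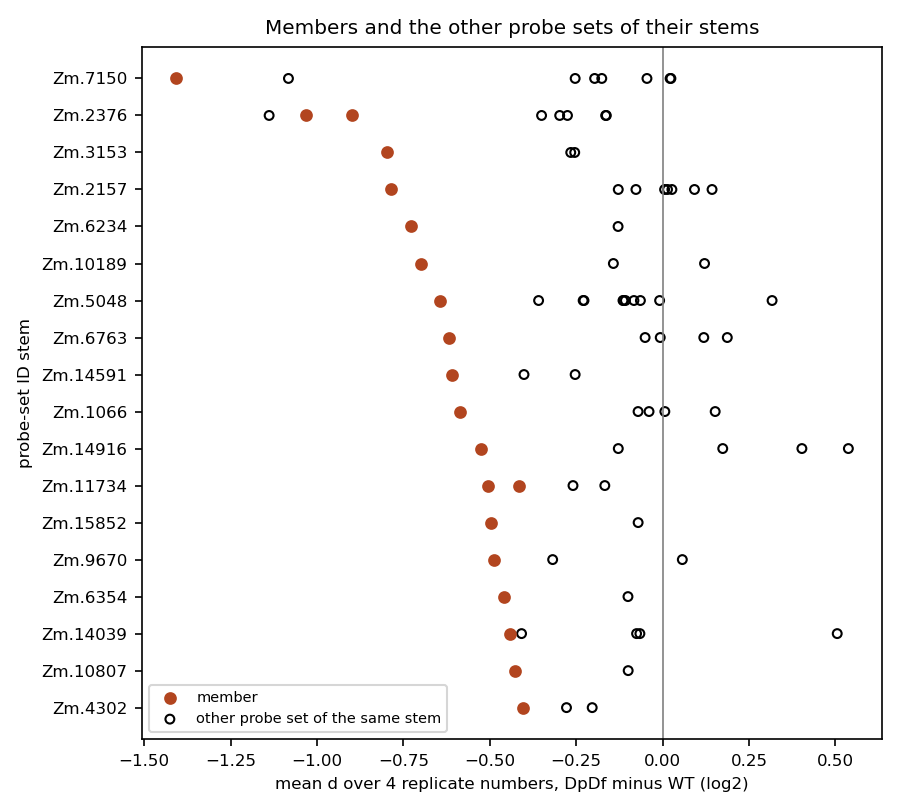
For the 18 stems with another probe set at the level, filled points give the mean d (log2, DpDf minus WT) of each member and open points that of each other probe set of the stem. Most open points lie to the right of the members, 44 of the 62 below 0, with a median of -0.10.

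In 3 stems more than 1 probe set was a member. Zm.2376 had 2 members. Zm.2376.3.S1_a_at had 456, 493, 375 and 466 in DpDf pools, against 644, 960.2, 1292 and 856 in WT pools. The WT pool of replicate 3 was the highest, and d was lowest in that pair, at -1.78. Zm.2376.3.S1_at had 118, 129, 114 and 127 in DpDf pools, against 157, 199, 366 and 231 in WT pools. The WT pool of replicate 3 was again the highest in the second member, and its d was -0.42, -0.63, -1.68 and -0.87 in replicates 1 to 4. A sister with a symbol, Zm.2376.7.A1_at, annotated as the gene LOC542597 (piip1) of chromosome 9, had 63.7, 75.6, 40.2 and 68.7 in DpDf pools, against 109, 174, 123 and 135 in WT pools, a mean d of -1.14. Another probe set annotated to that gene, Zm.2376.1.A1_x_at, had 258, 88.0, 46.6 and 97.8 in DpDf pools, against 26.5, 88.7, 288 and 239 in WT pools. Its d ran from 3.28 in replicate 1 to -2.63 in replicate 3, so the probe sets of this stem did not read 1 common pattern.

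Zm.11734 and Zm.869 had 2 members each. Zm.11734.1.A1_a_at had 397, 592, 633 and 628 in DpDf pools, against 672, 684, 1090 and 758 in WT pools. The DpDf pool of replicate 1 stood below the other 3, and the WT pool of replicate 3 above the other 3. Zm.11734.2.S1_x_at had 360.4, 435, 499 and 524 in DpDf pools, against 471, 517, 859.9 and 621 in WT pools. The WT pool of replicate 3 was the highest in this member too, and the groups overlapped. Its difference was -0.42, and -0.24 without WT pool 3. Zm.869.1.A1_a_at had 288, 275, 329 and 278 in DpDf pools, against 456, 335, 442 and 423 in WT pools. The DpDf pools differed little from each other, and the lowest WT pool was that of replicate 2. Zm.869.1.A1_x_at had 298, 286, 294 and 286 in DpDf pools, against 475, 349, 390.2 and 352 in WT pools. This member repeated the low WT pool of replicate 2. Members of 1 stem can share probes or target transcripts, so these pairs of members are not independent.

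Orientation is also written in the ID. For 18 members the array holds 19 partner probe sets whose IDs differ in the letter A or S, which marks the orientation of the probes. All 19 partners were below the level, at mean log2 values of 2.35 to 4.38. Of the 1148 probe sets of the unnamed background that have such a partner, 87.3% also had no partner at the level, and the rule put every member at the level. Prefix ZmAffx was carried by 10 members, 9.71%, against 5.39% of the unnamed background, and 8 of the 10 had such a partner, none above 3.08.

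By the same numeric rule 18 probe sets with a symbol, for 17 genes, were also lower in DpDf, 1.63% of those at the level. They are not members, and they are the nearest named comparison. After Zm.2376.7.A1_at, the lowest mean d was that of Zm.7308.1.S1_at (LOC541932, hda106), a gene named as a histone deacetylase, at -0.68. TUBB2, which encodes a beta tubulin of the microtubules, had 142, 139, 139 and 138 in DpDf pools, against 190.3, 224, 246 and 227 in WT pools, and all DpDf pools were below all WT pools. Other named probe sets, not all of which are listed here, were those of pma1, a proton pump of the plasma membrane (mean d -0.66), and an alternative oxidase of mitochondria (LOC542074, -0.64). Those of sh1, a sucrose synthase (-0.59), and cesa10, a cellulose synthase subunit (-0.50), were also among them. The groups of the alternative oxidase overlapped, with 69.5 in DpDf pool 4 against 56.8 in WT pool 1. The sh1 probe set ends in _a_at, its groups overlapped too, and its d was -1.27, -0.23, -0.60 and -0.26 in replicates 1 to 4. For cesa10 d was -0.51, -0.45, -0.53 and -0.50. The 17 genes lay on 8 chromosomes, with 5 of the 83 named genes at the level on chromosome 2 and 3 of the 159 on chromosome 1. Chromosome 5 held 1 of its 99, and chromosome 6, which the labels give as the deficient one in DpDf plants, held 1 of its 79. By the mirror rule 38 probe sets with a symbol were higher in DpDf, and they included 28 of the 99 named genes at the level on chromosome 5.

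The edges of the rule cut through a continuous range of values. Just inside the limit on mean d were Zm.4302.2.A1_a_at at -0.404, Zm.1882.1.S1_at at -0.416 and Zm.11734.2.S1_x_at at -0.416. Just outside were Zm.4987.1.A1_at at -0.399, Zm.6981.1.A1_at at -0.396 and Zm.5443.1.A1_at at -0.395. On the limit for the largest d, Zm.14039.1.A1_a_at, Zm.18949.1.A1_at and Zm.6354.1.A1_a_at were inside at -0.201, -0.201 and -0.202. Zm.15549.1.S1_at, ZmAffx.1040.1.S1_at and Zm.6083.2.A1_a_at were outside at -0.199, -0.198 and -0.198. On the level, Zm.19089.1.A1_at, Zm.787.1.A1_at and Zm.7650.1.A1_at were inside at 4.75, 4.84 and 4.86. Zm.4568.1.A1_at, Zm.570.1.A1_at and Zm.16704.1.A1_at were outside at 4.74, 4.62 and 4.58, and of these Zm.570.1.A1_at had a mean d of -1.16. Members near an edge differ little from probe sets that were left out.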

How the data were processed

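RNA from each of 8 pools was hybridised to 1 maize GeneChip. The deposited values are linear intensity values, 1 for each probe set and array; the submitters' processing notes name MAS5, and any scaling target and version were not given in the sources used here; detection calls were not used. From these, log2 values were taken with no pseudocount and no further normalization, and 113 array controls were left out. Symbols came from the platform annotation. A d pairs the arrays of 1 replicate number, which share a sowing and seed source per the labels; deviations from group means correlated within numbers at r = 0.36, 0.51, 0.56 and 0.33, so the numbers pair the samples.

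Tests used limma 3.58.1 in R 4.3.3 (lmFit, eBayes with trend) on the 12335 probe sets with mean log2 at or above the 30th percentile (4.76, a linear value of 27.0), with Benjamini-Hochberg adjustment over all of them and a threshold of 0.05. One member, Zm.19089.1.A1_at, fell under that limit. The planned fit had genotype alone; the replicate block, a seed source term, a control 3' minus 5' term, quantile normalization, a pseudocount of 16, other filters and leaving out each array were alternatives. The number of arrays limits precision, and p-values measure the spread between pools of siblings. In the fit with genotype alone that spread includes differences between replicate numbers and between seed sources. The genotype, seed source and interaction fits were tested on simulated data. Each simulated array was drawn independently, so that test did not cover the correlation within replicate numbers.

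The members and lists were chosen with earlier results of these data known. Members are named where they are on-off, have the 12 lowest mean d, the 6 highest levels, the 4 smallest or largest ranges of d, lie at an edge of the rule, share a stem, or have the 3 smallest seed source p, which names 36 of the 103; others are said to be chosen after their values were seen, except those listed for a counted property. No sequences of the members were used here.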

Additional observations from a re-analysis of the deposited data

Results flagged for a closer look

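Each group of 4 pools was examined for a pool far from the other 3, for the 36 named members, which makes 72 groups. By chance about 1 in 20 such groups would be marked, and 3 were. Zm.5472.1.A1_at had 71.3 in DpDf pool 2, against 97.1 to 102 in the other DpDf pools. Zm.11734.1.A1_a_at had 397 in DpDf pool 1, against 592 to 633 in the other DpDf pools. Zm.3307.1.A1_a_at had 39.7 in WT pool 1, against 49.0 to 51.0 in the other WT pools. For Zm.11734.1.A1_a_at the pool is the one with the largest control 3' minus 5' difference, 1.52, and the part of that in the value was not tested.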

How the results depend on the processing

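Over all 12335 probe sets, those called lower in DpDf numbered 104 with genotype alone, 413 with the replicate block, 184 with a seed source term and 32 with the control 3' minus 5' term, and from 43 (without WT pool 4) to 153 (without WT pool 2) when 1 array was left out. Members called lower were 52, 94 with the replicate block and 22 with the control term, and from 33 (without WT pool 4) to 49 when 1 array was left out. The members' median difference was -0.57, and -0.51 with the control term, -0.47 with a pseudocount of 16, -0.58 to -0.52 when 1 array was left out, and -0.52 with both arrays of replicate 1 left out, a setting chosen after seeing the data. Members under the rule numbered 103, and 47 at limits of -0.5 and -0.3, 276 at limits of -0.3 and -0.1, and 120 to 194 without 1 replicate number. Their number was 98 with quantile normalization, 79 with a pseudocount of 16, 78 at a level of log2 6 and 120 with no limit on the level. The seed source fit called 1 probe set, 4 with no replicate block and 0 with WT arrays alone (867 at an unadjusted p under 0.05, of which 19 members), and the limma interaction called 0 with and without a random replicate block (503 with and 247 without at an unadjusted p under 0.05, of which 8 and 5 members). The control difference of 0.29 (exact permutation p 0.0571) was 0.25 (exact permutation p 0.0286) for the transcript ef1a alone; the other 4 transcripts used gave 0.28 (actin, 0.171), 0.43 (Cyph, 0.0857), 0.17 (Gapdh, 0.143) and 0.32 (Ubiquitin, 0.0571), with the exact permutation p second, and it was 0.18 to 0.36 when 1 array was left out. Among 35 named members in the fit, under the settings that can change an estimate, 340 recomputed values moved by no more than the member's own SD of d. A further 44 moved by more, nearer to 0 or further from it, and kept their sign. In 1 case the sign changed: Zm.4302.2.A1_a_at at 0.059 with the control term. Zm.7150.3.A1_a_at, with an SD of 1.01, counts among the 340 although it went from -1.41 to -0.56 with the control term. The replicate block, the seed source term, the trend and the filters leave the estimate of a balanced fit as it was, so they are not counted there. With a pseudocount of 16, 5 of the 35 named members moved by more than their SD of d. They were Zm.787.1.A1_at (-0.70 to -0.45), Zm.13032.1.A1_at (-1.10 to -0.84), Zm.1882.1.S1_at (-0.42 to -0.28), Zm.19120.1.A1_at (-0.64 to -0.47) and Zm.3307.1.A1_a_at (-0.46 to -0.33). Zm.7650.1.A1_at stood at -0.57 without the pseudocount and at -0.37 with it. The cause of these shifts was not tested.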
